A study of Mus musculus with 21 samples.

Results

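The genes described here are 7 precursors of neuropeptides (*Calca*, *Calcb*, *Gal*, *Npy*, *Sst*, *Tac1* and *Adcyap1*) and 3 granins (*Vgf*, *Scg2* and *Chga*). They were chosen by name and function, not by a measured value, and make up 10 of the 52550 genes in the table of counts, where each was found by its Ensembl identifier. Neuropeptides are cut from longer precursors inside dense-core vesicles, leave the cell by regulated secretion and act on G protein-coupled receptors of nearby cells. Granins are acidic proteins of the same vesicles that help to form them, and several are themselves cut into peptides. In the cochlea, peptides such as CGRP, the product of *Calca* and *Calcb*, are best known from efferent fibers, while spiral ganglion neurons (SGNs) signal to the brain with glutamate.

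RNA-Seq was carried out on 7 groups of C57BL/6 mouse cells with 3 replicates each, 21 libraries in all. The donors of SGNs, aged E15.5 or P1, P8, P14 and P30, carried ShhCre/+; Rosa26-CAG-loxp-stop-loxp-tdTomato/+, so that tdTomato marked cochlear cells with a history of *Shh*-driven Cre, and the cells were picked by hand. Hair cells (HCs) came at P12 from cochlear and vestibular organs together, of Atoh1-CreER+; Rosa26-CAG-LSL-tdTomato/+ mice given tamoxifen at P0 and P1. Glial cells came at P8 from the spiral ganglion area of vGlut3-iCreER/+; Rosa26-CAG-LSL-tdTomato/+ mice given tamoxifen at P2 and P3, a Cre line that also labels inner hair cells, which were removed by dissection. All groups carried a Cre allele and the reporter, and only the HC and glial groups had tamoxifen. The HCs and glial cells were each taken at a single age, and nothing in the sources says that replicates came from separate animals, so p-values measure the spread between these pools of cells.

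Libraries held between 10368240 and 37287489 counts on genes (median 20384100), from 69 to 195 picked cells for SGNs, 86 to 125 for glial cells and about 1200 for HCs. A count of 3, the limit that a count of 0 allows, equaled between 0.0805 and 0.289 counts per 1000000 (CPM), for counting error only. The summed level of 4 SGN markers, which include *Slc17a6*, *Slc17a7* and *Lypd1*, was between 532 and 1806 CPM in SGN libraries, between 12.2 and 22.9 in HCs and between 25.8 and 248 in glial cells, with the highest glial value in replicate 1. Hair cell markers (*Myo6*, *Myo7a*, *Pou4f3*, *Gfi1*) summed to between 3418 and 3463 CPM in HCs, and glial markers, which include *Sox10* and *Foxd3*, to between 1874 and 2135 CPM in glial cells, so each label stood with its own markers. The level per gene length (transcripts per 1000000, TPM) was uneven between libraries of a group, because 1 gene of 57 bases, *Gm23935*, took between 8.17% and 68.1% of it. Levels below are therefore in CPM where libraries are compared and in TPM where genes are compared.

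Of the 10 genes, only *Chga*, *Vgf*, *Scg2* and *Tac1* exceeded 1 CPM in every replicate of some group and entered the tests. The other 6 were too sparse and are described by their values, with a fit without the filter given beside those of *Npy*. *Chga* had the highest mean TPM of the 10 genes at P1, P8, P14 and P30, between 91.4 and 175, and *Vgf* had the highest at E15.5, at 31.9 ± 15 (SD, n = 3) beside 19.7 ± 8.19 for *Chga*. Among the peptide precursors in SGNs, *Tac1* had the highest mean TPM at each postnatal age, between 5.48 and 11.4. In bulk samples, fewer cells of a type and less RNA per cell cannot be told apart, and this holds for every level below.

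*Tac1* (chromosome 6, 7554879 to 7565834, GRCm38, plus strand) encodes the precursor of substance P and neurokinin A. At E15.5 its level was 2.33, 11.6 and 0.692 CPM in replicates 1, 2 and 3. At P1 it was 12.3, 7.31 and 10.6 CPM, and at P8 it was 51.6, 10.5 and 12.9 CPM. The 3 libraries of P1 lay close together, while at P8 replicate 1 was 3.99 times the middle library. At P14 the values were 29.2, 6.35 and 13.0 CPM, and at P30 they were 29.5, 1.91 and 7.73 CPM. All 15 SGN libraries held more *Tac1* than any HC or glial library, and the ranges of all neighboring ages overlapped. The fitted change from E15.5 to P30 was 2.24 on the log2 scale (SE 1.43, adjusted p = 0.221, limma-voom with Benjamini-Hochberg adjustment), and *Tac1* passed the test in no comparison of ages in the fit without a replicate block.

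No *Tac1* count was found in the 3 HC libraries, and the glial libraries held 2, 0 and 2 counts. Against HCs, where a fitted fold depends on the offset added to a 0, the mean over the 5 SGN ages of 13.8 CPM was at least 70.6-fold higher than a floor of 3 counts per HC library (adjusted p = 5.93e-05, limma-voom). Against glial cells, the mean of the 5 ages was higher by 6.48 on the log2 scale (SE 1.49, adjusted p = 0.00118), and SGNs at P8 were higher by 7.64 (SE 1.53, adjusted p = 0.000432). From the pooled counts, 2553 at P8 and 4 in glial cells, the CPM ratio was 277 with a 95% exact interval of 108 to 1017 that covers counting error only. A cell-type difference was called at an adjusted p under 0.01 and a change over 4-fold. The call against glial cells for the mean of the ages was lost when glial replicate 1, 2 or 3 was left out (adjusted p = 0.0136, 0.0218 and 0.0124).

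**Figure D1:**
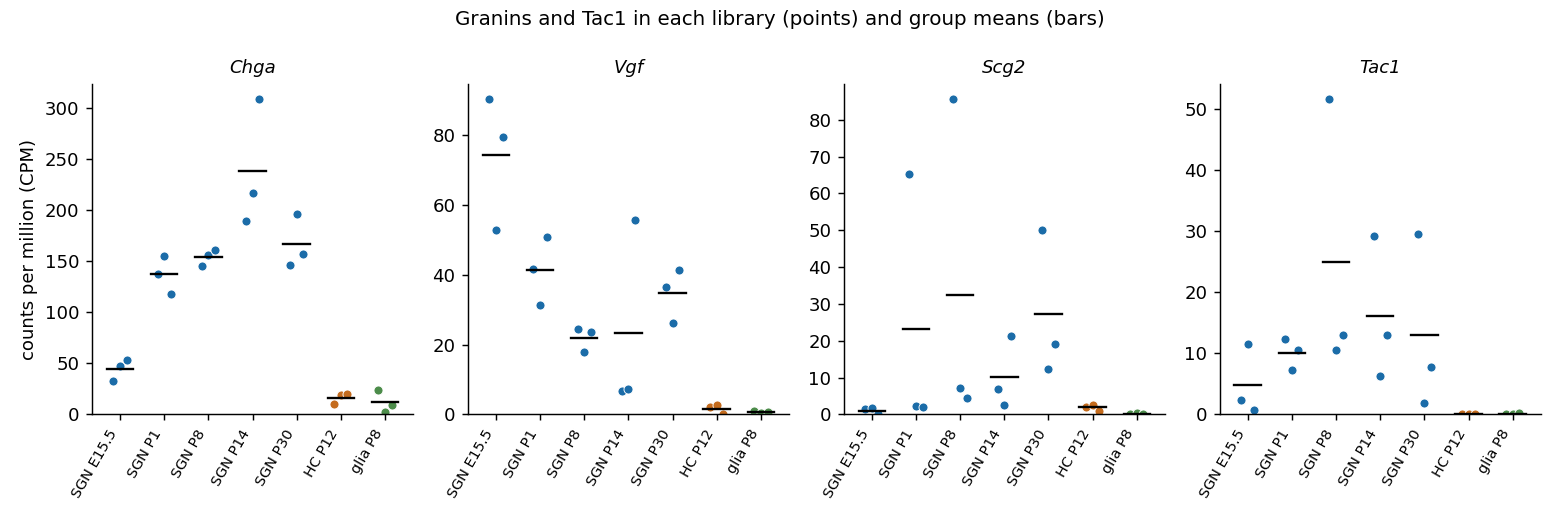
CPM of *Chga*, *Vgf*, *Scg2* and *Tac1* in the 21 libraries. Each point is a library, each bar a group mean of 3 libraries, and the vertical axes start at 0 and differ between panels. *Chga* in SGNs rises from between 32.8 and 52.8 CPM at E15.5 to at least 118 CPM in every later library, whereas the means of *Scg2* at P1 and P8 rest on 1 library each.

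*Calca* (chromosome 7, 114631478 to 114636357, minus strand) and *Calcb* (114718643 to 114723365, plus strand) lie 82285 bases apart and encode α- and β-CGRP. They are close paralogs, so their counts are uncertain where reads could be split, and a gene-level count of *Calca* also includes calcitonin transcripts. *Calca* stood at 11.3 CPM in P1 replicate 1 beside 0.240 and 1.10 CPM in replicates 2 and 3. At P30 it was 5.34 CPM in replicate 1 beside 0.540 and 0.120 CPM. In the libraries of E15.5, P8 and P14 it reached at most 1.28 CPM, in HCs 0.993 CPM and in glial cells 0.386 CPM. Thus 2 SGN libraries of different ages held most of the *Calca* reads, 89.5% and 89.0% of their age's CPM. *Calcb* was at 0 in 10 of 15 SGN libraries and at most at 0.483 CPM in the others. In glial cells it was 0, 0.251 and 14.9 CPM, with 154 of its 157 glial counts in replicate 3.

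*Gal*, the precursor of galanin (chromosome 19, 3409915 to 3414544, minus strand), was found mainly in 1 SGN library and in HCs. At E15.5 it stood at 0.155, 9.93 and 0.0576 CPM, so replicate 2 was 64.0 times the middle library, which held only 2 counts. In the 12 later SGN libraries it did not exceed 0.679 CPM. HCs held 2.62, 0.234 and 2.12 CPM, and glial cells held no count. By mean CPM the highest group was SGNs at E15.5 (3.38 ± 5.67, SD, n = 3), and by mean TPM it was HCs (6.00 ± 4.47, SD, n = 3). *Gal* was the only 1 of the 10 genes whose highest group differed between the units.

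*Adcyap1*, the precursor of PACAP (chromosome 17, 93199017 to 93206537, plus strand), was highest in the same E15.5 library as *Gal*. Its levels at E15.5 were 0, 17.6 and 0.115 CPM, which puts 99.3% of the age's CPM in replicate 2. At P8 they were 0.731, 0.0304 and 0.0701 CPM. At P14 and P30 only replicate 1 held any count, at 1.93 and 2.76 CPM. *Adcyap1* was not counted in any of the 6 HC and glial libraries. *Sst*, the precursor of somatostatin (chromosome 16, 23889573 to 23890958, minus strand), was at 0 in 12 of 15 SGN libraries and in all HC and glial libraries. P1 replicate 1 and P8 replicate 1 held 4 and 2 counts, and P30 replicate 1 held 213 counts, or 5.71 CPM.

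*Npy*, the precursor of neuropeptide Y (chromosome 6, 49822710 to 49829507, plus strand), had, like *Calcb*, its highest mean in glial cells by both units. Glial libraries held 11.1, 6.36 and 0.193 CPM and HCs held 0.328, 1.29 and 1.12 CPM. In SGNs it was 0.310, 1.49 and 3.00 CPM at E15.5 and at most 0.322 CPM in the 12 later libraries, 8 of which were at 0. *Npy* did not pass the low-count filter. In a fit with no filter it was lower in SGNs at P8 than in glial cells by −6.41 on the log2 scale (SE 1.38, adjusted p = 0.00181, limma-voom) and fell from E15.5 to P30 by 4.32 (SE 1.44, adjusted p = 0.0496). The glial level rested on 2 of 3 libraries, with 220, 76 and 2 counts. SGNs held 4, 0 and 0 counts at P8 and 12, 0 and 0 at P30, so these fitted changes depend on the offset added to a 0. None of the other sparse genes was called in any comparison of the fit with no filter.

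**Figure D2:**
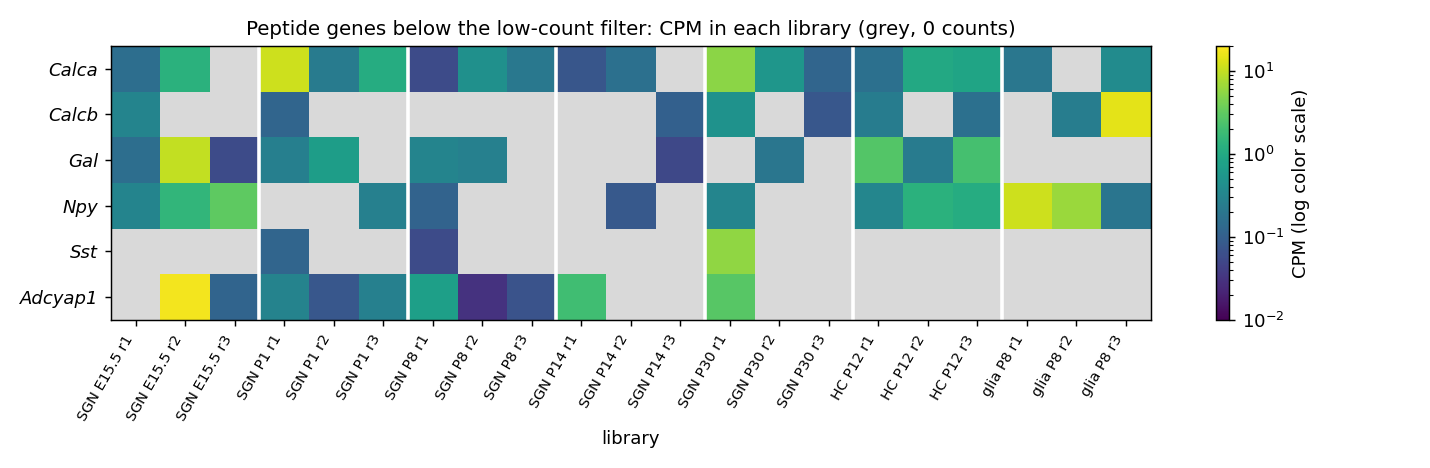
CPM of the 6 peptide genes that did not pass the low-count filter, by library, on a log color scale with libraries at 0 counts in grey. *Npy* is bright in 2 glial libraries, at 11.1 and 6.36 CPM, and other bright cells stand alone within a group: *Adcyap1* at 17.6 and *Gal* at 9.93 CPM in E15.5 replicate 2, *Calca* at 11.3 CPM in P1 replicate 1, *Sst* at 5.71 CPM in P30 replicate 1 and *Calcb* at 14.9 CPM in glial replicate 3.

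*Chga* (chromosome 12, 102554969 to 102565028, plus strand) encodes chromogranin A, the archetypal granin of neuroendocrine vesicles. In SGNs at E15.5 it stood at 32.8, 47.3 and 52.8 CPM. At P1 it was 138, 155 and 118 CPM, at P8 145, 156 and 161 CPM, at P14 189, 216 and 308 CPM, and at P30 146, 196 and 157 CPM. Each of the 12 postnatal libraries lay above each E15.5 library. *Chga* rose from E15.5 to P1 by 1.76 on the log2 scale (SE 0.27, adjusted p = 0.000883) and from E15.5 to P30 by 2.35 (SE 0.26, adjusted p = 3.54e-06, limma-voom). The rise from P8 to P14 of 0.68 (SE 0.19, adjusted p = 0.10) and the difference from P14 to P30 of −0.48 (SE 0.19, adjusted p = 0.623) did not pass. An age difference was called at an adjusted p under 0.05 and a change over 2-fold. Of the 4 genes tested, *Chga* was the 1 called from E15.5 to P1, where 8.26% of all 15113 genes tested were called and 5.08% rose. It was also the 1 called from E15.5 to P30, where 34.6% of all genes were called and 18.4% rose.

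In HCs *Chga* was 9.83, 19.3 and 19.97 CPM, and in glial cells 23.8, 2.68 and 9.26 CPM. Every SGN library exceeded every HC and glial library. The mean of the 5 ages was 3.53 higher than HCs on the log2 scale (SE 0.44, adjusted p = 7.29e-07) and 3.81 higher than glial cells (SE 0.55, adjusted p = 9.79e-06). At P8 the difference from glial cells was 4.13 (SE 0.57, adjusted p = 9.29e-06). The glial library with the highest *Chga*, replicate 1, was also the one with the highest sum of SGN markers, 248 CPM beside 32.7 and 25.8, and their part in its *Chga* level was not tested. No call of *Chga* was lost under any alternative tried.

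*Vgf* (chromosome 5, 137026392 to 137033351, plus strand) encodes a nerve growth factor-inducible granin that is cut into several peptides. Its level at E15.5 was 90.3, 52.9 and 79.6 CPM and at P1 41.7, 31.5 and 50.9 CPM. At P8 it was 24.4, 18.0 and 23.7 CPM. These 3 ages did not overlap and their means of 74.3 ± 19.3, 41.4 ± 9.71 and 22.0 ± 3.54 CPM (SD, n = 3) decreased in order. At P14 the libraries split, with 6.73 and 7.31 CPM in replicates 1 and 2 and 55.8 CPM in replicate 3. At P30 the values were 36.7, 26.1 and 41.5 CPM. Fitted age means spanned 2.03 on the log2 scale and the F test over the 5 ages passed (adjusted p = 0.0278, limma-voom). Of the 4 genes tested, *Vgf* and *Chga* were the 2 called there, where 34.1% of all genes tested were. No single step passed, with −0.68 from E15.5 to P1 (SE 0.39, adjusted p = 0.265) and −0.58 from E15.5 to P30 (SE 0.40, adjusted p = 0.253). The age call was lost with edgeR's quasi-likelihood test (adjusted p = 0.285) and DESeq2 (0.128), with no low-count filter (0.0698), with sample quality weights (0.0504), and without E15.5 replicate 1 or 3 or P14 replicate 1 or 2 (0.0564, 0.0610, 0.0917 and 0.0865).

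HCs held 2.13, 2.80 and 0.0558 CPM of *Vgf*, and glial cells 1.01, 0.418 and 0.579 CPM. All 15 SGN libraries, the lowest of which held 6.73 CPM, lay above them. The mean of the SGN ages was 5.86 higher than HCs on the log2 scale (SE 1.08, adjusted p = 0.000107, limma-voom) and 5.57 higher than glial cells (SE 1.11, adjusted p = 0.000307). At P8 the difference from glial cells was 5.13 (SE 1.15, adjusted p = 0.00122), a call that was lost without glial replicate 2 or 3 (adjusted p = 0.0118 and 0.0110).

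*Scg2* (chromosome 1, 79434669 to 79440120, minus strand) encodes secretogranin II, the precursor of secretoneurin. At E15.5 it was 1.40, 1.71 and 0 CPM. At P1 it was 65.3, 2.16 and 1.92 CPM and at P8 85.5, 7.12 and 4.35 CPM. Replicate 1 therefore held 94.1% and 88.2% of these ages' CPM and was 30.3 and 12 times the middle library. At P14 the values were 6.81, 2.59 and 21.3 CPM and at P30 50.04, 12.3 and 19.2 CPM. The 3 libraries of P30 lay above the 3 of E15.5 without overlap, and the fitted change was 6.47 on the log2 scale (SE 2.92, adjusted p = 0.0857, limma-voom), which did not pass. It did pass with edgeR's quasi-likelihood test (5.18, adjusted p = 0.0202), with DESeq2 (5.14, 0.00335), in the fit of all 21 libraries (6.45, 0.0170) and without P8 replicate 1 (6.47, 0.0359). With 0 CPM in E15.5 replicate 3, *Scg2* entered the fit of ages through postnatal libraries, where it was higher.

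Against HCs, which held 2.13, 2.57 and 1.00 CPM, *Scg2* in the mean of the SGN ages differed by 2.34 on the log2 scale (SE 1.68, adjusted p = 0.251), and it was called higher in SGNs with DESeq2 (2.95, adjusted p = 0.00726). Against glial cells, with 2, 4 and 0 counts, it differed by 5.59 (SE 2.11, adjusted p = 0.0333) and at P8 by 6.96 (SE 2.17, adjusted p = 0.0131, limma-voom). Neither passed the threshold of 0.01, although 14 of 15 SGN libraries lay above every glial library. With edgeR's quasi-likelihood test both passed, at 6.33 (adjusted p = 0.00431) and 7.84 (adjusted p = 0.00294).

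**Figure D3:**
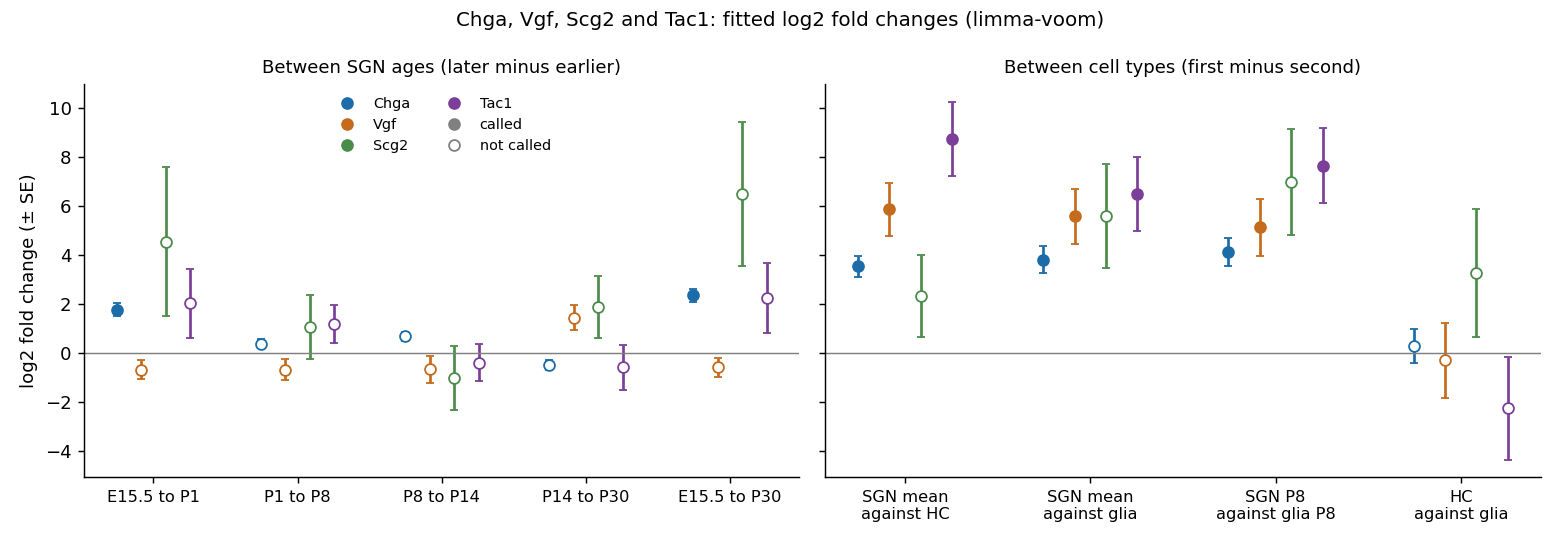
Fitted log2 fold changes of *Chga*, *Vgf*, *Scg2* and *Tac1* (points) with standard errors (bars), from limma-voom, between SGN ages (left) and between cell types (right). Filled points passed the thresholds of their comparison. The bars of *Chga* are short and those of *Scg2* long, and *Tac1* against HCs has no HC count behind it, so its point depends on the offset added to 0.

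Of the 10 genes, *Tac1*, *Vgf* and *Chga* were called higher in SGNs than in HCs, beside 10.5% of all 17531 genes tested (26.8% in either direction). The same 3 were called higher in SGNs than in glial cells for the mean of the ages, beside 14.3% of all genes (24.7% in either direction), and at P8, beside 13.4% (20.9% in either direction). These comparisons share SGN or glial libraries. With sample quality weights *Chga* alone was called against glial cells, since *Tac1* and *Vgf* had adjusted p of 0.138 and 0.0846 for the mean of the ages and 0.0802 and 0.109 at P8 (limma-voom). *Tac1* and *Vgf* could pass the low-count filter only through SGNs, where they were high. *Scg2* also passed it through HCs, and *Chga* through HCs and glial cells. The count of 3 among the 4 tested therefore supports nothing beyond the values given. Between HCs and glial cells, where 24.4% of all genes were called, none of the 10 was called by limma-voom, edgeR or DESeq2, and none of the 4 tested had an unadjusted p under 0.05. From P1 to P8 (7.44% of all genes called) none was called by any of the 3 tools and none had an unadjusted p under 0.05. From P8 to P14 (0.536%) and from P14 to P30 (0.0596%) none was called by any tool, with 1 gene (*Chga*) and 2 genes (*Vgf*, *Chga*) at an unadjusted p under 0.05 in limma-voom.

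Several of the genes had the highest value of an age in the same library. P8 replicate 1 was the highest library of its age for 7 of the 9 genes with any count there, P30 replicate 1 for 7 of 10 and P1 replicate 1 for 6 of 10. E15.5 replicate 2 and P14 replicate 3 were the highest for 5 of 9 each. How often each library was the highest over all genes was not computed, so these numbers show nothing particular to the 10 genes. Some rest on few counts: 4 of *Npy* and 2 of *Sst* in P8 replicate 1, and 1 of *Gal* and 2 of *Calcb* in P14 replicate 3. Over the genes of the SGN fit, the highest library was a median of between 1.22 and 1.43 times the middle one at each age, and at least 10 times in between 0.944% and 2.25% of genes. *Scg2* and *Calca* at P1, *Scg2* and *Adcyap1* at P8, and *Gal* and *Adcyap1* at E15.5 were past 10 times. Of these, *Calca*, *Gal* and *Adcyap1* did not pass the filter of that fit, so its shares are no measure for genes so sparse. The middle library held 2 counts for *Gal* and *Adcyap1* at E15.5 and for *Adcyap1* at P8. This is under the limit of 3 counts, so the size of these ratios is uncertain.

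Other measures were read in the same libraries. P1, P8 and P30 replicate 1 had the most counts and the most picked cells of their age, 195 at P1, 140 at P8 and 114 at P30. P14 replicate 1 also had the most of its age (25843913 counts, 127 cells), and was the highest library for 2 of 9 genes. E15.5 replicate 2 had the most counts of its age, whereas P14 replicate 3 had the fewest counts and cells of its age (19323437 counts, 89 cells). The 5 connective tissue markers (*Col1a1*, *Col1a2*, *Col3a1*, *Dcn*, *Lum*) summed to 621 CPM in P1 replicate 1 beside 29.9 and 28.1, to 556 CPM in P8 replicate 1 beside 106 and 79.2, and to 112 CPM in P30 replicate 1 beside 3.14 and 0.837. At P14 the sum was also highest in replicate 1, at 252 CPM beside 29.9 and 35.6, and at E15.5 the sums were 176, 196 and 42.2 CPM. The 4 hemoglobin genes summed to 15.4 CPM in P1 replicate 1 beside 0.0799 and 0.0913, to 15.51 CPM in P8 replicate 1 beside 0 and 0, and to 9.33 CPM in P30 replicate 1 beside 0.0981 and 1.51. At E15.5 they were high in replicate 1, at 101 CPM, and at 0 in replicates 2 and 3. *Th*, which sympathetic neurons express, was at 7.29 CPM in P30 replicate 1, the library with *Sst*, beside 0.785 and 1.08, while *Dbh*, another of their genes, was at 0 in all 3. *Prph*, 1 of 5 markers of type II SGNs read, was at 392 CPM in E15.5 replicate 2 beside 37.4 and 16.4. It was at 137 CPM in P30 replicate 1 beside 3.04 and 0.478. All 5 markers (*Prph*, *Gata3*, *Th*, *Ngfr*, *Plk5*) summed to 538, 1067 and 752 CPM in E15.5 replicates 1, 2 and 3. Replicate 3, the lowest in *Prph*, was thus above replicate 1 in the sum, so the list did not follow *Prph* alone. At P30 the sums were 508, 233 and 276 CPM. The markers of cholinergic efferent neurons *Chat* and *Slc18a3* were at 0 in all 21 libraries, and *Slc5a7* reached at most 4.26 CPM in SGNs and 5.58 CPM in HCs. The part of cell number, depth or other cells in the high values was not tested. With the 4 postnatal libraries numbered 1 left out together, a choice made after seeing the data, *Chga* kept its calls, *Scg2* passed over the ages (adjusted p = 0.0416), from E15.5 to P30 (5.76 on the log2 scale, adjusted p = 0.00839) and against glial cells for the mean of the ages (4.80, adjusted p = 0.0027) and at P8 (5.56, adjusted p = 0.00339), and *Vgf* no longer passed over the ages (adjusted p = 0.194).

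The sequence before the start was read for a full cAMP response element, the palindromic motif TGACGTCA, since several peptide genes are known targets of cAMP signaling. It was searched on both strands from 250 bases before to 50 bases after the transcription starts in RefSeq (GRCm38.p6), with no other motif searched. It was found for *Scg2* and *Sst* and not for *Calca*, *Gal*, *Npy*, *Tac1*, *Adcyap1* (2 starts) or *Chga*, and *Calcb* and *Vgf* were not searched. Of all 32851 promoters of this length, 588 (1.79%) held it, and a match describes the letters only. The motif begins 68 bases before the start of *Scg2* (chr1:79440076-79440105) and 48 bases before that of *Sst* (chr16:23890874-23890903). These RefSeq starts lie downstream of the GENCODE starts, so that both stretches fall inside the gene spans given above. Both 30-base stretches, from the minus strand, are shown with the motif in capitals:
Scg2: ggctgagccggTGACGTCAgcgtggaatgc
Sst: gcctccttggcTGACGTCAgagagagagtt

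The other granins and granin-like genes were read beside *Chga*. Of 4 such genes, 2 rose from E15.5 to P1 and 3 rose from E15.5 to P30 (5.08% and 18.4% of all genes rose), with a median change of 2.14 on the log2 scale beside −0.01 over all genes tested. *Chgb*, the gene of chromogranin B, rose from 242 ± 84.2 CPM at E15.5 to 581 ± 196 at P1 (log2 change 1.44, SE 0.30, adjusted p = 0.00683, limma-voom) and stood at 751 ± 42.8 CPM at P30 (SD, n = 3). *Scg5*, which encodes the PC2 chaperone 7B2, was 30.3 ± 7.95, 94.0 ± 20.1 and 137 ± 18.7 CPM at these ages and rose by 2.68 on the log2 scale from E15.5 to P30 (SE 0.34, adjusted p = 1.28e-05). *Pcsk1n*, which encodes the PC1 inhibitor proSAAS, rose by 2.09 over the same span (SE 0.42, adjusted p = 0.00087). *Scg3* did not pass, with 158 ± 46 CPM at E15.5 and 164 ± 17.9 at P30.

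Against HCs 2 of these 4 genes were called higher in SGNs, beside 10.5% of all genes tested. *Chgb* was higher by 3.96 (SE 0.50, adjusted p = 1.02e-06) and *Pcsk1n* by 8.61 on the log2 scale (SE 1.13, adjusted p = 1.59e-06, limma-voom). *Pcsk1n* was low in HCs and glial cells, with means of 0.327 and 0.571 TPM, and entered the fit through SGNs. Its calls against these cells therefore support nothing beyond the values given. *Scg5* was not higher in SGNs than in HCs, with 98.8 ± 6.67 CPM in HCs. Against glial cells at P8, 3 of 4 were called higher in SGNs, beside 13.4% of all genes tested. As for *Chga*, the highest glial value of *Chgb* and *Scg5* was in replicate 1.

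Among 9 genes of prohormone processing, 2 rose and 2 fell from E15.5 to P30, beside 34.6% of all genes called in either direction. *Pcsk1*, the convertase PC1, rose from 2.29 ± 3.66 to 13.8 ± 5.81 CPM (log2 change 4.84, SE 1.26, adjusted p = 0.00598), and *Cpe*, carboxypeptidase E, rose from 183 ± 32.8 to 446 ± 29.5 CPM (1.77, SE 0.19, adjusted p = 2.42e-06, limma-voom). At E15.5 *Pcsk1* did not pass the filter, so it entered the fit through later ages, where it was higher. The call of *Pcsk1* therefore supports nothing beyond the values given. *Pam*, whose enzyme amidates peptides such as CGRP, substance P and NPY, fell by 2.53 on the log2 scale (SE 0.88, adjusted p = 0.0303) and *Qpct*, glutaminyl cyclase, fell by 2.62 (SE 0.87, adjusted p = 0.0241). The count of 4 became 2 without E15.5 replicate 3. *Pcsk2*, the convertase PC2, was 140 ± 30.7 CPM at E15.5, 68.4 ± 12.7 at P1 and 140 ± 32.0 at P8, a rise from P1 to P8 of 1.23 (SE 0.22, adjusted p = 0.00195). Against HCs, *Pcsk2*, at 0.516 ± 0.462 CPM there, was higher in SGNs by 9.32 on the log2 scale (SE 1.33, adjusted p = 4.85e-06), and *Pcsk5*, at 396 ± 12.6 CPM in HCs, was lower in SGNs (−2.69, adjusted p = 2.17e-11). *Pcsk1* (−0.43, adjusted p = 0.632) did not pass.

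**Figure D4:**
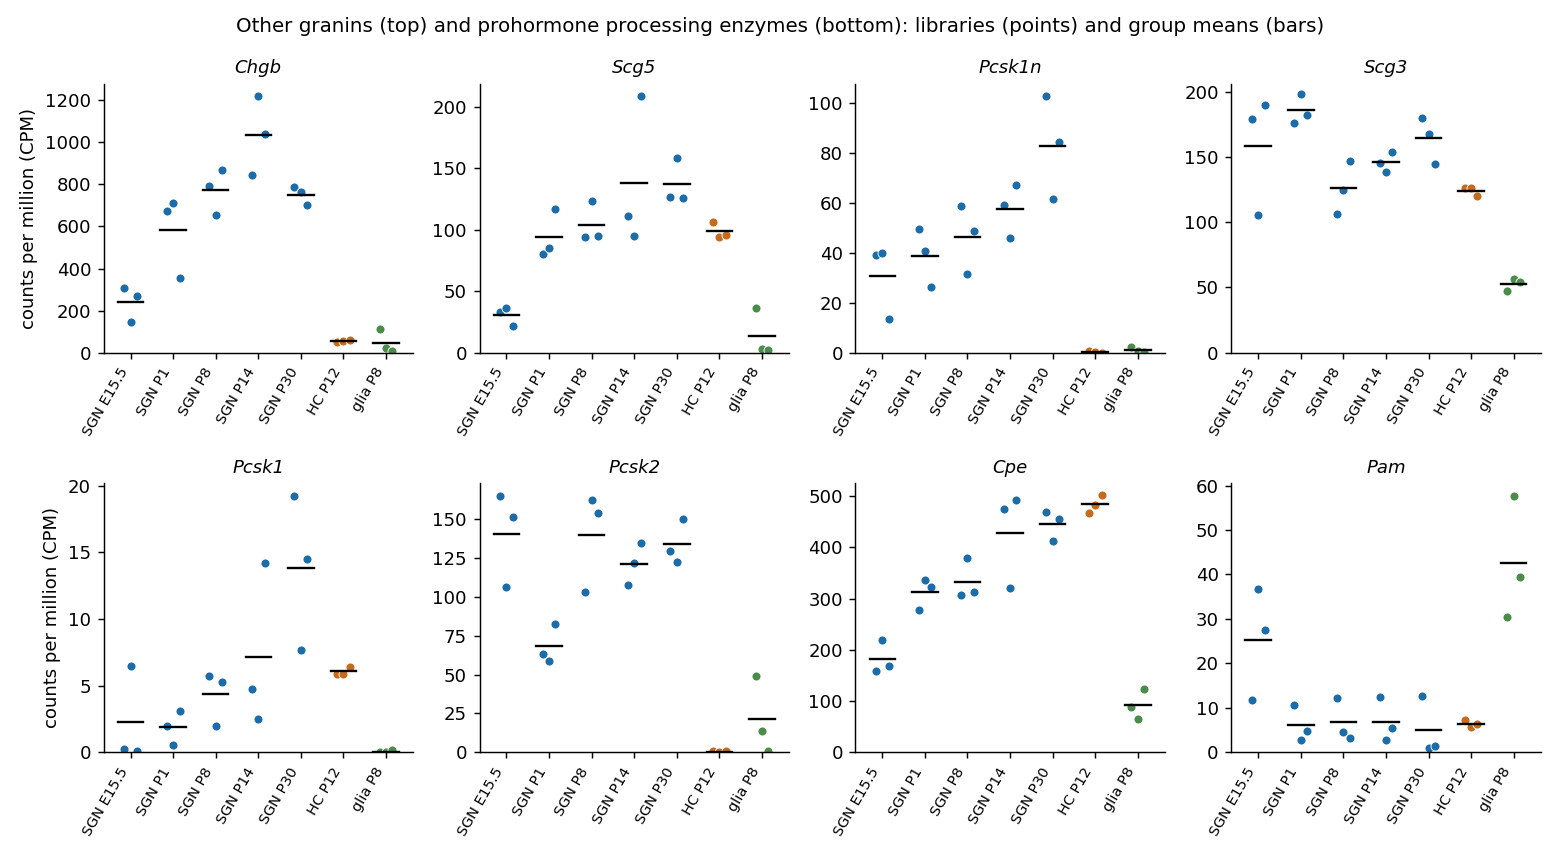
CPM of 4 other granins and granin-like genes (top) and 4 prohormone processing enzymes (bottom) in the 21 libraries, with each point a library, each bar a group mean of 3 libraries, and axes that start at 0 and differ between panels. *Chgb* and *Scg5* are lowest of the SGN ages at E15.5, *Pcsk2* is near 0 in HCs, and *Pam* has its highest mean, 42.5 CPM, in glial cells.

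Of 13 genes of dense-core vesicle formation and release, 11 were tested between ages, and 4 rose and none fell from E15.5 to P30 (median 0.79 on the log2 scale, beside −0.01 over all genes, of which 18.4% rose). *Cadps*, the priming factor CAPS, rose from 322 ± 45.0 to 860 ± 59.2 CPM (log2 change 1.89, SE 0.17, adjusted p = 3.82e-07, limma-voom), and *Ptprn*, the vesicle membrane protein IA-2, from 72.7 ± 12.2 to 126 ± 17.8 CPM (1.29, SE 0.26, adjusted p = 0.000819). *Vti1a* and *Rab27a* were the others. Of 47 other neuropeptide precursors, 46 were matched to the table and 2, *Nmb* and *Apln*, were tested between SGN ages, with none called. In the fit with HCs 7 were tested, 5 of which entered it through the HCs or glial cells, so no direction is read from that fit. The values were 6.44 ± 2.28 CPM in HCs and at most 0.224 ± 0.266 CPM in an SGN age for *Cartpt*, and 2.64 ± 1.36 and at most 0.162 ± 0.281 CPM for *Crh*.

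Of 25 receptor genes for the peptides of the 7 precursors, 4 were tested between ages. *Npy4r*, a receptor of the NPY family, was at 9.37 ± 6.25 CPM at E15.5, 6.11 ± 5.54 at P1 and 0.153 ± 0.115 at P8, and fell by 4.81 on the log2 scale from P1 to P8 (SE 1.28, adjusted p = 0.0224, limma-voom). Its mean was 0 TPM at P14 and 0.0072 TPM at P30. *Npy4r* could thus pass the filter only through E15.5 or P1, where it was high, and its call supports nothing beyond the values given. In the cell-type fit, *Npy1r* was higher in SGNs at P8 than in glial cells by 6.00 (SE 1.27, adjusted p = 0.000751), with 4.07 ± 1.78 CPM in SGNs at P8 and 2 counts in glial cells. *Adcyap1r1*, the PACAP receptor, was higher in the mean of the SGN ages than in HCs by 5.82 (SE 1.21, adjusted p = 0.000371). Its mean was 0.0514 TPM in HCs and between 1.18 and 2.81 TPM in the SGN ages. *Npy1r* and *Adcyap1r1* entered this fit through SGNs, where they were high, so these 2 calls support nothing beyond the values given. *Calcrl*, the CGRP receptor subunit, passed the filter only through the HCs, where it stood at 19.0 ± 3.03 CPM, and had means of at most 2.64 ± 4.31 CPM in an SGN age. Its SGN reads at P1 were mostly in replicate 1, at 7.61 CPM beside 0.319 and 0.

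Over the 21 libraries, the genes whose log2 level followed *Chga* most closely among 17531 were *Snph* (Pearson's r = 0.979), *Rcan2* (0.976) and *Dync1i1* (0.975). For *Vgf* they were *Chrna4* (0.966), *1700037H04Rik* (0.951) and *Ccdc177* (0.949), and for *Tac1* they were *Susd2* (0.926), *Kcnk3* (0.918) and *Scn2b* (0.912). For *Scg2* the highest values were lower, 0.896 for *Gimap6*, 0.869 for *Ndnf* and 0.867 for *Gm12138*. These values describe 21 libraries of 7 groups that share depth and cell type, and they carry no test.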

How the data were processed

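RNA was amplified with the Ovation RNA-Seq System V2 and sequenced in pairs. The authors mapped reads to mm10 with STAR 2.4.0i and counted them per GENCODE vM15 gene with featureCounts; the deposited table holds raw counts and a gene length, and its strand, multimapping and pair settings are not given in the sources used here. Counts between 1 and 20 were even in a median of 67.9% of cases. The labels describe HCs as sorted by hand, and the study's methods describe flow sorting.

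CPM (count over the library total) and TPM (count over length) were computed here with Python 3.11.15 and pandas 2.3.3. Counts were normalized with TMM (edgeR 4.0.16) and fitted with voom in limma 3.58.1 under R 4.3.3, the study's tools and thresholds, with two-sided tests and Benjamini-Hochberg adjustment over all genes. Ages used the 15 SGN libraries (15113 genes above 1 CPM in each replicate of some age) and cell types all 21 (17531 genes). edgeR's quasi-likelihood test, DESeq2 1.42.0, other scalings, no filter, quality weights, a replicate block, other sets of libraries and each library left out were alternatives. The code was tested on simulated data.

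The genes, lists and markers were chosen with earlier results of these data known. All 10 genes were named, with up to 4 genes per list by level, up to 3 per list and comparison by fold, and the 3 genes most like each; *Gm23935* was named after its values were seen, and results for some genes are not reported here. Positions came from GENCODE M21 (GRCm38). Replicate numbers were checked as pairs by correlating deviations from group means. At P14 and P30 same-numbered libraries had r of 0.414, 0.279 and 0.151; no label ties a number to an animal or day.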

Additional observations from a re-analysis of the deposited data

How the results depend on the processing

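*Chga* kept its direction and its calls between ages and against HCs and glial cells under every alternative run, and *Tac1* and *Vgf* kept theirs against HCs. The number of the 10 genes that passed over the ages was 2, and 1 with edgeR's quasi-likelihood test, DESeq2, no filter or quality weights, 3 with the replicate block (*Tac1*, adjusted p = 0.0283) and 2 without the 4 postnatal libraries numbered 1 (*Scg2* in place of *Vgf*). With a library left out it was 1 to 2, and 1 without E15.5 replicate 3 or P14 replicate 1 or 2. From E15.5 to P1 it was 1, and 2 with DESeq2 (1 to 2 with a library left out, the second being *Npy* without E15.5 replicate 1). From E15.5 to P30 it was 1, and 2 with edgeR, DESeq2, library size only, no filter, the fit of all 21 libraries or the 4 postnatal libraries numbered 1 left out together (1 to 2 with a library left out, the second being *Npy* without E15.5 replicate 1 or *Scg2* without P8 replicate 1). Library size alone moved the median of all genes by −0.47 there and by −0.55 against HCs. Against glial cells the number was 3 for the mean of the ages and at P8, 1 in each with quality weights, and 4 in each with edgeR, DESeq2, the replicate block and the 4 libraries left out (*Scg2* added) and with no filter (*Npy* added), also at P8 with only the groups compared (*Scg2*). Against HCs it was 3, and 4 with DESeq2 (*Scg2*). Between HCs and glial cells it was 0, and 0 to 1 with a library left out (*Npy* without glial replicate 3).

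With the replicate block, the number was 1 from P1 to P8 (*Tac1*, 1.58, adjusted p = 0.0419) and 3 from E15.5 to P30 (*Scg2*, *Tac1* and *Chga*). For E15.5 and P30, r of the same numbers lay between −0.18 and 0.01, with no sign of pairing. For P1 and P8 it was 0.40, 0.07 and 0.16 in replicates 1, 2 and 3, so pairing by number is uncertain there. Same-numbered libraries correlated over 0.1 in all 3 pairs for P14 with P30, P1 with P14 and P8 with P30. From P14 to P30, the 1 of these that was a comparison, the block changed no call of the 10 genes.

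Of the genes in the lists, 2 passed from P1 to P8, with 4 in DESeq2, 1 with the 4 postnatal libraries left out and 1 to 3 with a library left out (1 without any of the P8 libraries). Under quality weights the lists gave 4 calls for the mean of the ages against glial cells (12 otherwise), 6 at P8 (12) and 5 for HCs against glial cells (11).

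Some log2 changes that were not called turned in sign, and the cause was not tested. From P8 to P14, *Vgf* was −0.67, and 0.17 with edgeR, 0.20 with DESeq2 and 0.0475 without the 4 libraries. *Scg2* was −1.02, 0.46 without the 4 libraries, and −1.74 to 0.39 with a library left out (positive without P8 replicate 1). *Tac1* was −0.40, and −1.004 to 0.38 with a library left out (positive without P8 replicate 1 or P14 replicate 2). From P1 to P8 *Scg2* was 1.08, and −0.34 to 3.08 with a library left out (negative without P8 replicate 1). From P14 to P30 *Tac1* was −0.58, and −1.81 to 0.38 with a library left out (positive without P14 replicate 1 or P30 replicate 2). Between HCs and glial cells *Vgf* was −0.29, 0.77 with edgeR, 0.96 with DESeq2, 0.20 with library size only, and −1.24 to 1.38 with a library left out (positive without HC replicate 3 or glial replicate 1). There *Chga* was 0.27, −0.0387 with edgeR, and −0.50 to 1.23 with a library left out (negative without glial replicate 2). Depth limits the 6 sparse genes most, since a count of 0 allows up to 0.289 CPM.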
